A study of Homo sapiens with 12 samples.

Results

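The CTLH complex, the human counterpart of the yeast GID complex, is a ubiquitin ligase assembled from many subunits, and RANBP9 is one of the proteins that hold it together. A pair of RING-type subunits, MAEA and RMND5A, passes ubiquitin from a conjugating enzyme to the substrate. RANBP9 or its paralogue RANBP10, together with GID8 and ARMC8, forms the scaffold, GID4 is a substrate receptor carried by ARMC8, and WDR26 and MKLN1 join scaffolds into larger assemblies. YPEL5 binds on the WDR26 side of the complex. In yeast the complex is known for the degradation of gluconeogenic enzymes, and in the liver cancer study behind these data the question concerned RANBP9 and the mitochondrial fusion protein MFN2. The transcripts of 10 subunits, chosen by gene symbol (RANBP9, RANBP10, MAEA, RMND5A, GID8, ARMC8, GID4, WDR26, MKLN1 and YPEL5), were read out of 60666 listed genes. Each symbol matched 1 gene, and all 10 were among the 14394 genes with at least 1 TPM (a share of the library's transcripts, corrected for transcript length and scaled to a fixed total) in at least 3 libraries.

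The RNA was from the hepatocellular carcinoma line Huh7, an established human cell line, carrying either a control construct or an shRNA against FAM111B (shFAM111B). The study's methods describe lentiviral delivery of the constructs and selection in puromycin, so both groups share transduction and selection. There were 3 control and 3 shFAM111B libraries, and Hep3B libraries of the same series were not analysed here. One shRNA stands for the knockdown, and no source used here says whether the libraries of a group came from separate cultures, so p-values measure the spread between these libraries, which may be technical. TPM hold no sequencing depth, so the depth behind each value is unknown. Because the cells were measured in bulk and TPM are relative, less of a transcript per cell and fewer cells that express it cannot be told apart.

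The targeted gene was examined first. FAM111B, a peptidase-domain protein, had 7.84, 8.29 and 7.99 TPM in the control libraries and 0.96, 1.13 and 0.84 TPM in the shFAM111B libraries, which do not overlap. The 19 nt shRNA target, shown because a match in a subunit would bear on the values below, reads as follows.
shFAM111B target: CTGCCTAGTGATTCTCATT
Among GENCODE v29 transcripts it matched those of FAM111B over its whole length and those of no other gene. Its longest run shared with a transcript of a subunit was 11 nt in ARMC8, and in RANBP9 it was 7 nt. Hepatocyte markers were present at summed levels of 27950 to 28520 TPM in control and 41570 to 46540 TPM in shFAM111B libraries. Of these 10 markers 6 were lower and 4 higher at an adjusted p under 0.05 by limma (described below), beside 50.9% and 21.1% of all tested genes. AFP alone went from 7044.67 to 7411.08 TPM in control to 21852.68 to 25038.14 TPM in shFAM111B libraries. Of the fibroblast markers 2 of 5 passed the filter (summed 7.61 to 10.39 TPM against 11.71 to 16.55 TPM), of the endothelial markers 1 of 4 (1.26 to 2.29 TPM against 2.15 to 3.49 TPM, with KDR at 0 in every library), and of the leukocyte markers 2 of 5, LYZ and CD68 (276.3 to 283.8 TPM against 308.3 to 340.8 TPM, with CD3E at 0 in all control libraries). The part of these markers in the results was not tested.

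Across the complex, most subunit transcripts were lower in shFAM111B cells. RANBP9 and WDR26 fell to 31.3% and 36% of their control means, RANBP10 to 45.3%, RMND5A to 56.4%, MAEA to 66.3% and GID8 to 69.3%. MKLN1 was the 1 subunit that rose, to 143% of control. At an adjusted p under 0.05 (limma on log2(TPM + 1), Benjamini-Hochberg over all 14394 tested genes), 7 of 10 subunits were lower and 1 was higher, where 50.9% of all tested genes were lower and 21.1% higher, and of the 7 the fall of YPEL5 turned to a rise under each of 4 other scalings and that of GID8 under 1, while MAEA kept its direction but lost its call under 3. The remaining 2, ARMC8 and GID4, did not pass. With the cut-offs of the study (at least a 2-fold change with P under 0.05) applied to the limma fit, 2 of 10 were lower and 0 higher. These 2 were RANBP9 and WDR26. Of all tested genes 23.7% were lower and 6.82% higher by this rule. Those shares are not the result of the study, whose own comparison gave similar numbers of genes up and down in Huh7 at these cut-offs. The fold is taken on the log2(TPM + 1) scale, and RANBP10 misses it there (-0.98) although its mean TPM fell by more than that, and its value is -1.12 with a pseudocount of 0.1.

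The shift of the whole transcriptome sets the scale for these values. The median tested gene had a log2 fold change of -0.36 on the log2(TPM + 1) scale, and the median over the 10 subunits was -0.62. Relative to the median gene, 7 subunits lay below it and 3 (GID4, MKLN1 and YPEL5) above it. The values of the 2 groups did not overlap for 7 subunits in the lower and 1 in the higher direction, beside 52.8% and 22.5% of all tested genes, and 75.2% of all tested genes did not overlap in either direction.

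**Figure D1:**
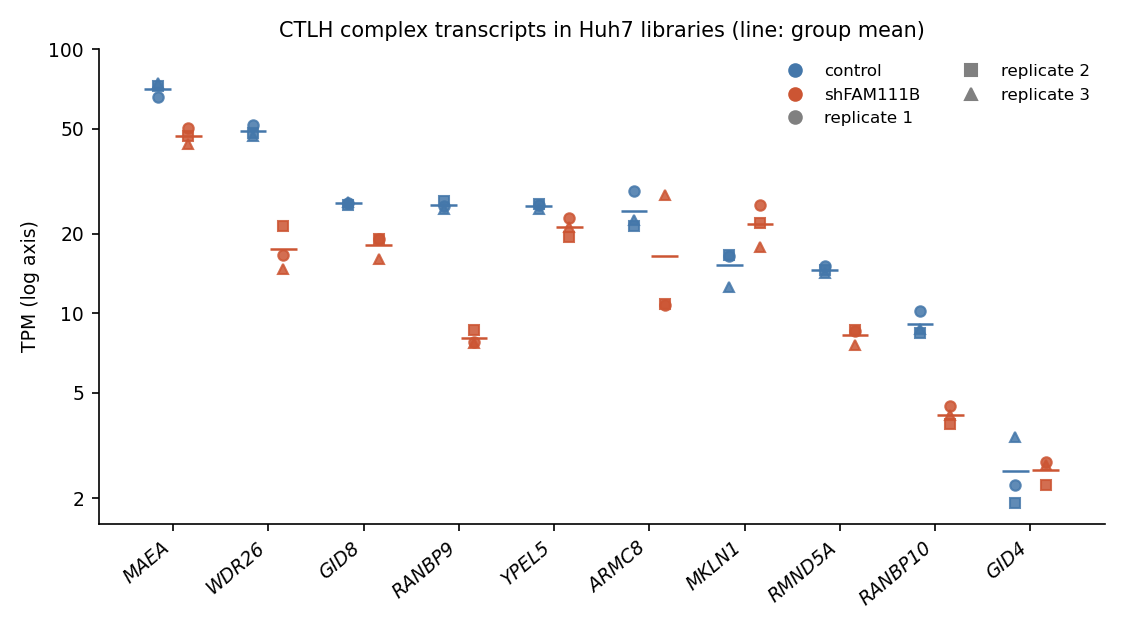
TPM of the 10 CTLH subunits in the 3 control and 3 shFAM111B Huh7 libraries, with 1 point per library and bars for the group means. RANBP9 lies between 24.76 and 26.71 TPM in control and between 7.70 and 8.62 TPM in shFAM111B libraries, MKLN1 is higher in shFAM111B libraries, and 1 shFAM111B library of ARMC8 reaches 27.99 TPM.

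RANBP9 and RANBP10, the paralogous scaffold proteins with SPRY and LisH-CTLH domains, both fell. RANBP9 (ENSG00000010017, GRCh38 chromosome 6 from 13621498 to 13711564, minus strand) stood at 25.59, 26.71 and 24.76 TPM in the control libraries and at 7.81, 8.62 and 7.70 TPM in the shFAM111B libraries, each in the order of the replicate numbers used throughout. Every shFAM111B value was below the lowest control value. The means were 25.69 ± 0.979 and 8.04 ± 0.502 TPM (SD, n = 3 each), and the log2 fold change was -1.56 (standard error 0.0769, adjusted p = 5.26e-06 by limma). Relative to the median gene it was -1.2 on the same scale. RANBP10 (ENSG00000141084, chromosome 16 from 67723066 to 67806652, minus strand) had 10.20, 8.41 and 8.75 TPM in control and 4.48, 3.81 and 4.11 TPM in shFAM111B libraries. Those groups do not overlap either, and the log2 fold change was -0.98 (standard error 0.112, adjusted p = 0.000186 by limma). RANBP9 was the more abundant of the pair in every library, and its log2 ratio to RANBP10 (here and below the difference of the log2(TPM + 1) values of a library) went from 1.40 ± 0.155 in control to 0.82 ± 0.163 in shFAM111B libraries (SD, n = 3). The ratios did not overlap (1.25, 1.56 and 1.40 against 0.69, 1.00 and 0.77). The difference was -0.58, with an exact two-sided permutation p of 0.1, the smallest that 3 against 3 libraries can give.

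The promoter sequences of RANBP9 and WDR26, the subunits past the 2-fold threshold, and of MKLN1, the subunit that rose, are given for comparison with the transcript changes. They are the 250 bases before each RefSeq start of these genes (GRCh38.p14), read 5′ to 3′ on the strand of the gene, and capitals mark GGGCGG, a GC box bound by SP1-type factors, or its reverse complement CCGCCC.
RANBP9, chr6:13711836-13712085 (minus strand): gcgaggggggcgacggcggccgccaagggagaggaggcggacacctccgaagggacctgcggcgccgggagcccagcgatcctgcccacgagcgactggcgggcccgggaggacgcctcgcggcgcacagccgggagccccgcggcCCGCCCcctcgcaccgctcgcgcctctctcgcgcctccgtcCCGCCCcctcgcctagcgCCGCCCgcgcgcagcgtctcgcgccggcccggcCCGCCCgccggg
WDR26, chr1:224434798-224435047 (minus strand): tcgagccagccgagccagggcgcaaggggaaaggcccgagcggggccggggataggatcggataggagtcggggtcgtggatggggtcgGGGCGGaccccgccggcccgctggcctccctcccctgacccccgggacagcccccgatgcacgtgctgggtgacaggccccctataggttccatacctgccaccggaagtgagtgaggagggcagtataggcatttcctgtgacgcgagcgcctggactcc
MKLN1, first start, chr7:131109844-131110093 (plus strand): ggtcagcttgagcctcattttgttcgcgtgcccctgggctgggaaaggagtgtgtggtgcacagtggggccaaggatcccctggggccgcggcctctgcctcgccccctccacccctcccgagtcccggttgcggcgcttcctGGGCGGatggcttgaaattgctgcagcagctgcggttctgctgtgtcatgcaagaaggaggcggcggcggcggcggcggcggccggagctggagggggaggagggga
MKLN1, second start, chr7:131327626-131327875 (plus strand): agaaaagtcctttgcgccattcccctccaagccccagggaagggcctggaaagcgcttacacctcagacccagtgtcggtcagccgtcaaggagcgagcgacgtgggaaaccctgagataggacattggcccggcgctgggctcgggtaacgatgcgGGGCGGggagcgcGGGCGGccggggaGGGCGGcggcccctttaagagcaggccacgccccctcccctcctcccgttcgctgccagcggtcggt
The RANBP9 window was 82.8% G or C with 4 GC boxes, the WDR26 window 69.6% with 1 and the MKLN1 windows 69.2% with 1 and 68.4% with 3, and the median over all 35116 windows was 58.0%. A GC box on either strand was found in 42.6% of all windows and in 10 of the 12 windows of the 8 subunits in the table, at least 1 for each subunit. CCAAT was in 32.0% of all windows and in 5 of these 12 (1 each of ARMC8, MAEA, MKLN1, RANBP10 and RMND5A, for MKLN1 that of the second start). CACGTG, an E-box, was in 6.3% of windows and CCGGAAG, an ETS-type motif, in 8.5%, and 2 of the 12 held each, 1 of MAEA and 1 of WDR26. A GC box was present before subunits that fell and before the one that rose, and its part in the transcript changes was not tested. For WDR26 the RefSeq start lies within the GENCODE v29 gene (chromosome 1 from 224385143 to 224437033), so other starts of this gene have other upstream sequence. The RANBP9 window, from 13711836, does not adjoin the GENCODE v29 gene either, since the upstream end of that gene is at 13711564.

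Both RING subunits were lower as deposited, and under the 4 other scalings RMND5A kept its call in all and MAEA in 1. MAEA (ENSG00000090316, chromosome 4 from 1289851 to 1340147, plus strand) was the most abundant subunit, with 66.08, 72.61 and 74.32 TPM in control and 50.49, 47.10 and 43.62 TPM in shFAM111B libraries. The groups do not overlap, and the log2 fold change was -0.58 (standard error 0.0744, adjusted p = 0.000327 by limma). RMND5A (ENSG00000153561, chromosome 2 from 86720173 to 86778041, plus strand), its RING partner, had 15.17, 14.55 and 14.24 TPM against 8.55, 8.64 and 7.62 TPM. This fall also separated the groups, and the log2 fold change was -0.76 (standard error 0.0833, adjusted p = 0.000154 by limma). RMND5A was the less abundant of the partners in every library, and the log2 ratio of RMND5A to MAEA was -2.20 ± 0.132 in control and -2.37 ± 0.0559 in shFAM111B libraries (SD, n = 3), a difference of -0.17 with an exact permutation p of 0.1, and of -0.10 without control replicate 1.

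Of the rest of the scaffold, GID8 was lower as deposited but not under other scalings, and the ARMC8 value depended on a single library. GID8 (ENSG00000101193, chromosome 20 from 62938119 to 62948475, plus strand), which links the RING pair to the scaffold, had 26.21, 25.80 and 26.50 TPM in control and 19.12, 19.21 and 16.07 TPM in shFAM111B libraries. Its groups do not overlap, and the log2 fold change was -0.51 (standard error 0.0838, adjusted p = 0.00119 by limma). Under the 4 other scalings GID8 lay between -0.11 and 0.02 and did not pass (adjusted p from 0.307 to 0.823 by limma). ARMC8 (ENSG00000114098, chromosome 3 from 138187248 to 138298389, plus strand), the armadillo-repeat protein that carries GID4, had 29.10, 21.45 and 22.65 TPM in control and 10.72, 10.88 and 27.99 TPM in shFAM111B libraries. shFAM111B replicate 3 lay among the control values while the other 2 were below all of them. The log2 fold change was -0.66 (standard error 0.350, adjusted p = 0.128 by limma), and without that library it was -1.09 (adjusted p = 0.000555 by limma). NME9, which overlaps ARMC8 on the opposite strand, was at 0.26, 0.22 and 0.28 TPM in control and at 0, 0.1 and 3.19 TPM in shFAM111B libraries, so the same library was high for both genes. ARMC8 has 17 coding transcripts of 612 to 4790 nt in GENCODE v29. The part of the overlap and of transcript lengths in the ARMC8 value was not tested.

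On the substrate side GID4 was the least abundant subunit. GID4 (ENSG00000141034, chromosome 17 from 18039292 to 18068404, plus strand), the receptor that recognises substrates by their N-terminal residues, had 2.25, 1.92 and 3.41 TPM in control and 2.74, 2.25 and 2.66 TPM in shFAM111B libraries. The groups overlap, and the log2 fold change was 0.03 (standard error 0.18, adjusted p = 0.893 by limma). At this level the pseudocount of 1 compresses any change. The log2 ratio of GID4 to ARMC8 went from -2.86 ± 0.401 to -2.17 ± 0.717 (SD, n = 3), with overlapping values and an exact permutation p of 0.3. The difference was 0.43 without shFAM111B replicate 1 and 1.10 without shFAM111B replicate 3.

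WDR26 and MKLN1, both of which join scaffolds into larger assemblies, moved in opposite directions. WDR26 (ENSG00000162923, minus strand), a WD40-repeat protein, had 51.64, 48.09 and 46.95 TPM in control and 16.59, 21.40 and 14.77 TPM in shFAM111B libraries. The highest shFAM111B value was below the lowest control value, and the log2 fold change was -1.44 (standard error 0.129, adjusted p = 5.65e-05 by limma). MKLN1 (ENSG00000128585, chromosome 7 from 131110096 to 131496636, plus strand), a kelch-repeat protein, had 16.54, 16.63 and 12.61 TPM in control and 25.64, 22.05 and 17.78 TPM in shFAM111B libraries. All shFAM111B values were above all control values, although the lowest of them was close to the highest control value. The log2 fold change was 0.48 (standard error 0.158, adjusted p = 0.0272 by limma). Without control replicate 3, shFAM111B replicate 1 or shFAM111B replicate 2 the adjusted p was 0.0814, 0.0813 or 0.0669, so this call depended on each of those libraries.

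The order of WDR26 and MKLN1 was exchanged between the groups. In control libraries the log2 ratio of WDR26 to MKLN1 was 1.59, 1.48 and 1.82, and in shFAM111B libraries it was -0.60, -0.04 and -0.25. Thus WDR26 exceeded MKLN1 in 3 of 3 control libraries and lay below it in 3 of 3 shFAM111B libraries. The difference of the means was -1.92 (1.63 ± 0.173 against -0.30 ± 0.282, SD, n = 3, exact two-sided permutation p = 0.1). It ranks first in size among the 6 ratios computed and kept its sign whichever library was left out. After adjustment over the 6 ratios the p-value was 0.12 for 5 of them and 0.3 for GID4 to ARMC8.

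YPEL5 (ENSG00000119801, chromosome 2 from 30146941 to 30160533, plus strand), a small zinc-binding protein, had 25.75, 25.99 and 24.91 TPM in control and 23.07, 19.41 and 21.22 TPM in shFAM111B libraries. The groups do not overlap in TPM, and the log2 fold change was -0.26 (standard error 0.0776, adjusted p = 0.0195 by limma), but under the 4 other scalings it was 0.14 to 0.27. Without control replicate 1 or 2 the adjusted p was 0.0552 or 0.0615. The log2 ratio of YPEL5 to WDR26 was -0.98, -0.86 and -0.89 in control and 0.45, -0.13 and 0.50 in shFAM111B libraries, a difference of 1.18 without overlap (exact permutation p = 0.1).

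**Figure D2:**
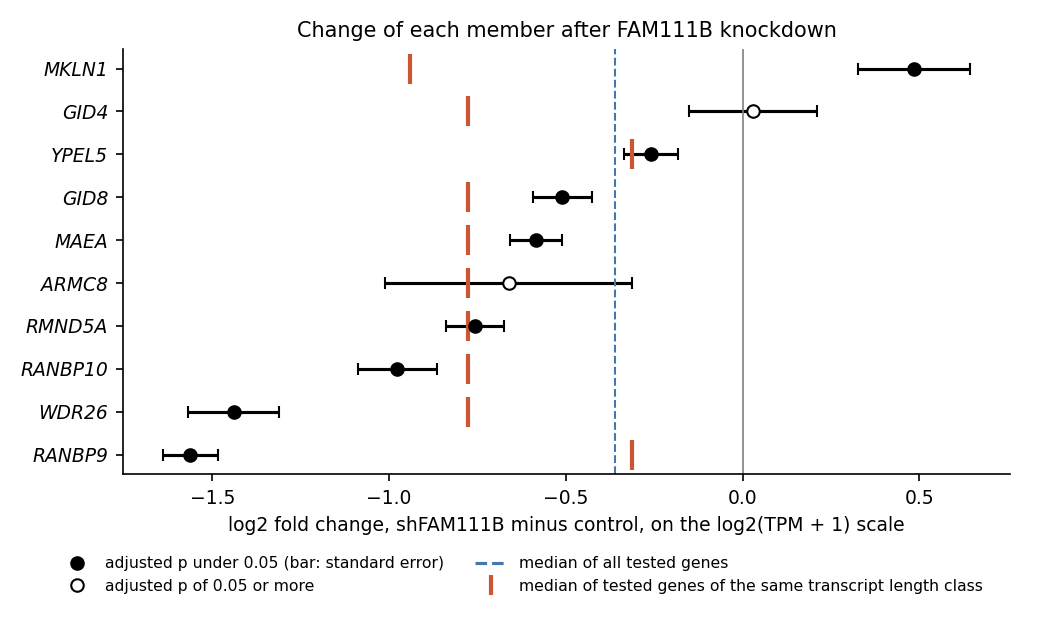
Log2 fold change (shFAM111B minus control, log2(TPM + 1) scale) of each subunit with its standard error, beside the median tested gene at -0.36. RANBP9 (-1.56) and WDR26 (-1.44) lie farthest below that median and MKLN1 (0.48) lies farthest above it.

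The make-up of the subunit transcript pool differed between the groups. The summed TPM of the 10 subunits was 268.5, 262.2 and 259.1 in control and 169.2, 163.4 and 163.5 in shFAM111B libraries. RANBP9 made up 9.76% ± 0.373 of the sum in control and 4.87% ± 0.358 in shFAM111B libraries (SD, n = 3 each). The share of WDR26 went from 18.6% ± 0.587 to 10.6% ± 2.16, and that of MKLN1 from 5.79% ± 0.805 to 13.2% ± 2.16. In all 3 cases the shares of the groups do not overlap. YPEL5 took 9.71% ± 0.181 and 12.8% ± 0.885, and MAEA held the largest share in both groups, at 27.0% ± 2.13 and 28.4% ± 1.62 with overlapping values. The ARMC8 share of shFAM111B replicate 3 was 17.12%, against 6.34% and 6.66% in the other shFAM111B libraries. With ARMC8 left out of the sum, an alternative chosen after that value was seen, the RANBP9 share was 10.8% and 5.42%, and that of MKLN1 was 6.38% and 14.6%.

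In control cells the levels ran from MAEA through WDR26 to GID8, RANBP9, YPEL5 and ARMC8, whose neighbours in that order overlap, then MKLN1 and RMND5A, which also overlap, then RANBP10 and GID4. In shFAM111B cells MAEA was again first and GID4 last. MKLN1 and YPEL5, which overlap, stood next to MAEA, followed by GID8, WDR26 and ARMC8, whose neighbours in that order overlap. The values of GID8, WDR26 and ARMC8 also overlapped those of MKLN1. RANBP9 stood beside RMND5A, with overlapping values of 7.70 to 8.62 and 7.62 to 8.64 TPM. RANBP9 thus moved from a level above that of RMND5A in every control library to one not separable from it.

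**Figure D3:**
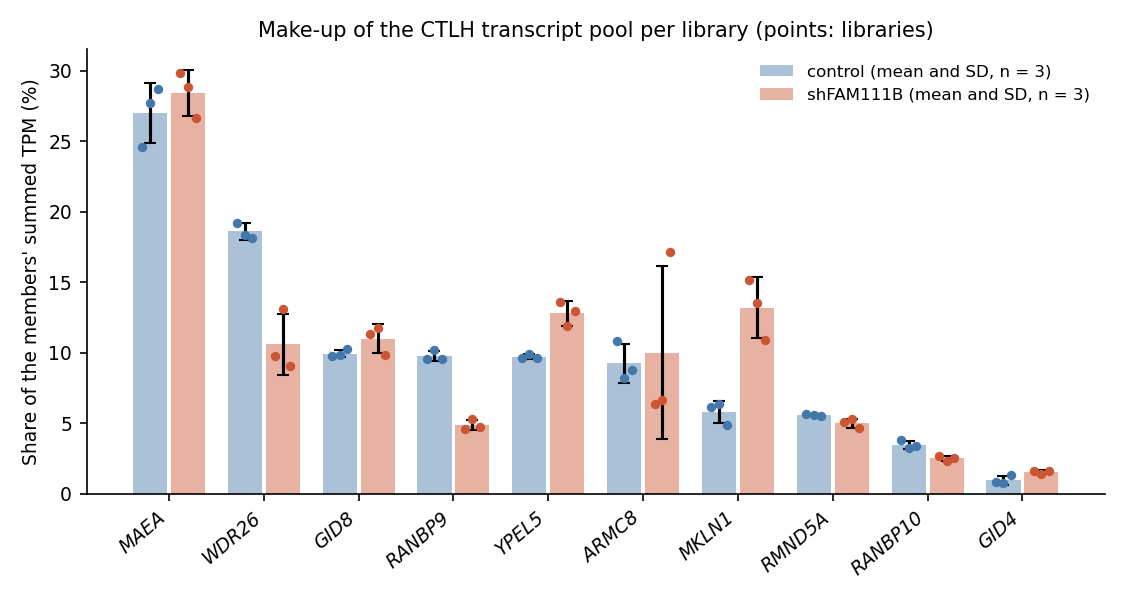
Share of each subunit in the summed TPM of the 10 subunits, in percent, for each of the 6 libraries. The RANBP9 and WDR26 shares are smaller and the MKLN1 share is larger in the 3 shFAM111B libraries than in the 3 control libraries, and the ARMC8 share is large in 1 shFAM111B library.

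The scaling of the libraries moved the values of all subunits upward together. Median-of-ratios scaling, upper-quartile scaling, subtraction of the library median and quantile normalization placed the median gene at 0.01, -0.01, 0.17 and -0.03, and the percent of all tested genes called higher and lower changed from 21.1 and 50.9 to 35 and 35.8, 34.3 and 36.4, 41.6 and 29.4, and 32.5 and 36.8 in the same order. RANBP9 stayed between -1.18 and -1.03, WDR26 between -1.05 and -0.91, RANBP10 between -0.62 and -0.44 and RMND5A between -0.38 and -0.22. MKLN1 lay between 0.88 and 1.02. MAEA was between -0.38 and -0.05. Under each scaling 7 of 10 subunits lay below the median gene.

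**Figure D4:**
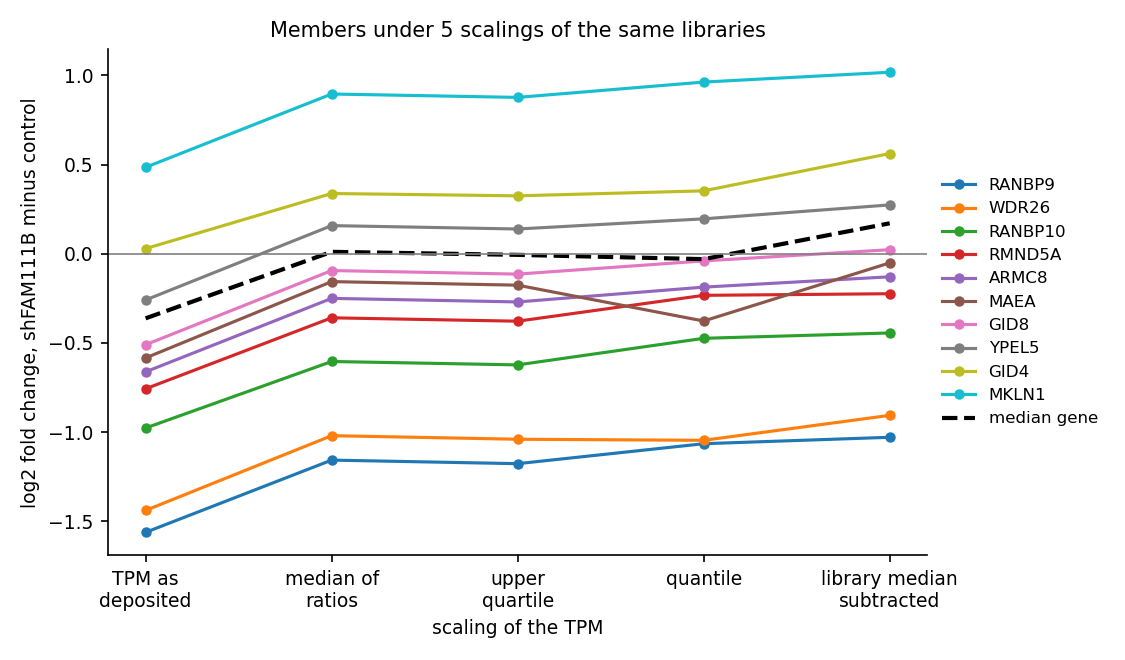
Log2 fold change of each subunit as deposited and under the 4 other scalings. RANBP9, WDR26, RANBP10 and RMND5A lie below 0 and MKLN1 above 0 under every one of them, and YPEL5 is below 0 only as deposited.

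Transcript length moved with the change across all genes, and the subunits differ in length. The median log2 fold change was 0.43 for genes whose longest GENCODE v29 transcript is at most 1000 nt, -0.31 for those over 2000 and up to 4000 nt, -0.78 for those over 4000 and up to 8000 nt, and -0.94 for those longer still. RANBP9, with a longest transcript of 3113 nt, lay at -1.25 relative to the median of its class, and WDR26, at 7367 nt, lay at -0.66. MKLN1, at 11156 nt, lay 1.43 above that of its class, but its 5 coding transcripts run from 551 to 11156 nt with a median of 864 nt. RMND5A, YPEL5, ARMC8, MAEA and GID8 were within 0.02 to 0.27 above their class medians, RANBP10 was at -0.20, and GID4 was 0.80 above. These classes use the longest transcript of any type. MAEA has coding transcripts of 550 to 2222 nt. Median coding lengths were 1444 nt for MAEA, 1714 nt for ARMC8, 1725 nt for WDR26 and 1391 nt for GID4. Genes over 1000 and up to 2000 nt had a median of 0.17. MAEA (-0.58) and ARMC8 (-0.66) lie below that median and below -0.31, and GID4 (0.03) lies below 0.17. The side on which MAEA, ARMC8 and GID4 fall thus depends on the transcript taken. MKLN1 (0.48) lies close to 0.43, the median of the class that holds its median coding length, so the size of its offset depends on this too. The part of transcript length in these results was not tested.

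Reads of some subunits may be shared with overlapping genes. The labels describe a stranded kit, but no source used here says whether the counting used strand. RANBP9 overlaps NOL7 on the opposite strand. Of the distinct 50-base words of RANBP9 transcripts, 9.04% also occur in another gene when words are matched on either strand. NOL7, a nucleolar protein, had 99.37, 99.06 and 100.04 TPM in control and 81.54, 79.26 and 87.93 TPM in shFAM111B libraries, which do not overlap. For MKLN1 the shared part was 20.38%, mainly with the antisense gene AC008264.2, which had 5.22 to 6.0 TPM in control and 4.99 to 5.65 TPM in shFAM111B libraries, with overlapping groups. RMND5A shared 4.49% of its words and the other subunits under 1%.

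Paralogues outside the 10 subunits were compared where measured. Of 5 listed, 3 were tested, with 1 higher, 1 lower and 1 that did not pass, where 21.1% of all tested genes were higher and 50.9% lower. RMND5B, the alternative RING subunit to RMND5A, had 34.13, 24.89 and 24.19 TPM in control and 27.59, 27.73 and 27.76 TPM in shFAM111B libraries, which overlap (log2 fold change 0.02, adjusted p = 0.926 by limma), but RMND5B was called higher under all 4 other scalings (0.41 to 0.55). The log2 ratio of RMND5A to RMND5B went from -0.86 ± 0.225 to -1.63 ± 0.0922 (SD, n = 3), without overlap and with an exact permutation p of 0.1. YPEL2 and YPEL3, relatives of YPEL5, moved apart, from 4.07 ± 0.369 to 1.26 ± 0.102 TPM and from 7.11 ± 0.593 to 15.4 ± 1.83 TPM (SD, n = 3; log2 fold changes -1.16 and 1.01).

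Of the genes that supply ubiquitin to the complex, 6 of 10 were lower and 3 higher at an adjusted p under 0.05 as deposited (median log2 fold change -0.43), beside 50.9% and 21.1% of all tested genes. UBE2H, the conjugating enzyme that works with CTLH, had 24.92, 23.61 and 19.60 TPM in control and 9.40, 9.47 and 9.53 TPM in shFAM111B libraries, which do not overlap. Its log2 fold change was -1.17 (standard error 0.1, adjusted p = 4.47e-05 by limma), and -0.79 to -0.64 under the 4 other scalings. UBE2D3, a conjugating enzyme of many RING ligases, and UBA6, an activating enzyme, fell by 1.12 and 1.76 on the log2 scale. RPS27A, a ubiquitin gene fused to a ribosomal protein, rose from 1400 ± 20.3 to 2997 ± 284 TPM (SD, n = 3), and UBB rose by 0.41 on the log2 scale as deposited but was at -0.03 under quantile normalization. Under the other scalings 3 to 5 of the 10 were lower and 3 or 4 higher, where 29.4 to 36.8% of all tested genes were lower and 32.5 to 41.6% higher.

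Genes named as targets of human CTLH in the list used here were 4 of 6 lower and 1 of 6 higher, beside 50.9% and 21.1% of all tested genes, counts that concern transcripts and not the proteins on which a ligase acts. MFN2, the outer-membrane fusion GTPase on which the study centred, had 54.98, 53.60 and 53.98 TPM in control and 27.83, 27.12 and 27.57 TPM in shFAM111B libraries. The groups do not overlap, and the log2 fold change was -0.95 (standard error 0.0497, adjusted p = 6.34e-06 by limma). Under the 4 other scalings MFN2 was lower by less, between -0.62 and -0.42. The study itself reports more MFN2 protein and less RANBP9 protein after FAM111B knockdown, which are measures of protein and not of these transcripts. HMGCS1, a cholesterol synthesis enzyme, went from 359.9 ± 32.9 to 126.6 ± 7.45 TPM (SD, n = 3). HBP1, a transcriptional repressor, was lower by a log2 fold change of -1.15. ZMYND19 rose (0.43, adjusted p = 0.00496 by limma), whereas NMNAT1, a nuclear NAD synthesis enzyme, had a log2 fold change of 0.15 and did not pass as deposited (adjusted p = 0.429 by limma) but was called higher under all 4 other scalings (0.51 to 0.68). Under each of the 4 other scalings 4 of 6 were lower and 2 of 6 higher, beside 29.4 to 36.8% and 32.5 to 41.6% of all tested genes.

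Partners of RANBP9 were 5 lower and 1 higher of the 6 tested among 8 listed, beside 50.9% and 21.1% of all tested genes. Under the other scalings only 1 or 2 were lower, beside 29.4 to 36.8% of all tested genes. RAN, the GTPase in the name of RANBP9, had 405.14, 456.90 and 398.26 TPM in control and 520.08, 514.97 and 491.43 TPM in shFAM111B libraries, so it was higher as deposited (0.28) and at -0.11 under quantile normalization. SOS1, a RAS exchange factor, had a log2 fold change of -2.20, from 10.26 ± 0.791 to 1.45 ± 0.244 TPM (SD, n = 3), and MET, the receptor for hepatocyte growth factor, one of -0.75, which did not pass under 2 of the 4 other scalings.

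Other ubiquitin ligases that act on mitofusins were 5 of 5 lower as deposited (median log2 fold change -0.85), beside 50.9% of all tested genes, and 2 to 4 of 5 under the other scalings, beside 29.4 to 36.8%. MARCHF5, a mitochondrial RING ligase, had 19.84, 23.90 and 19.75 TPM in control and 8.94, 8.14 and 6.79 TPM in shFAM111B libraries. The groups do not overlap, and its log2 fold change was -1.31 (adjusted p = 7e-05 by limma). MFN1, the paralogue of MFN2, fell from 16.57 ± 1.70 to 5.71 ± 0.569 TPM (SD, n = 3). FAM111A, the paralogue of FAM111B, had a log2 fold change of -0.15 (adjusted p = 0.183 by limma), and under the 4 other scalings its value was 0.23 to 0.38. Its adjusted p by limma was then 0.0479 (median-of-ratios), 0.0622 (upper-quartile), 0.00938 (library median subtracted) and 0.0103 (quantile normalization).

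**Figure D5:**
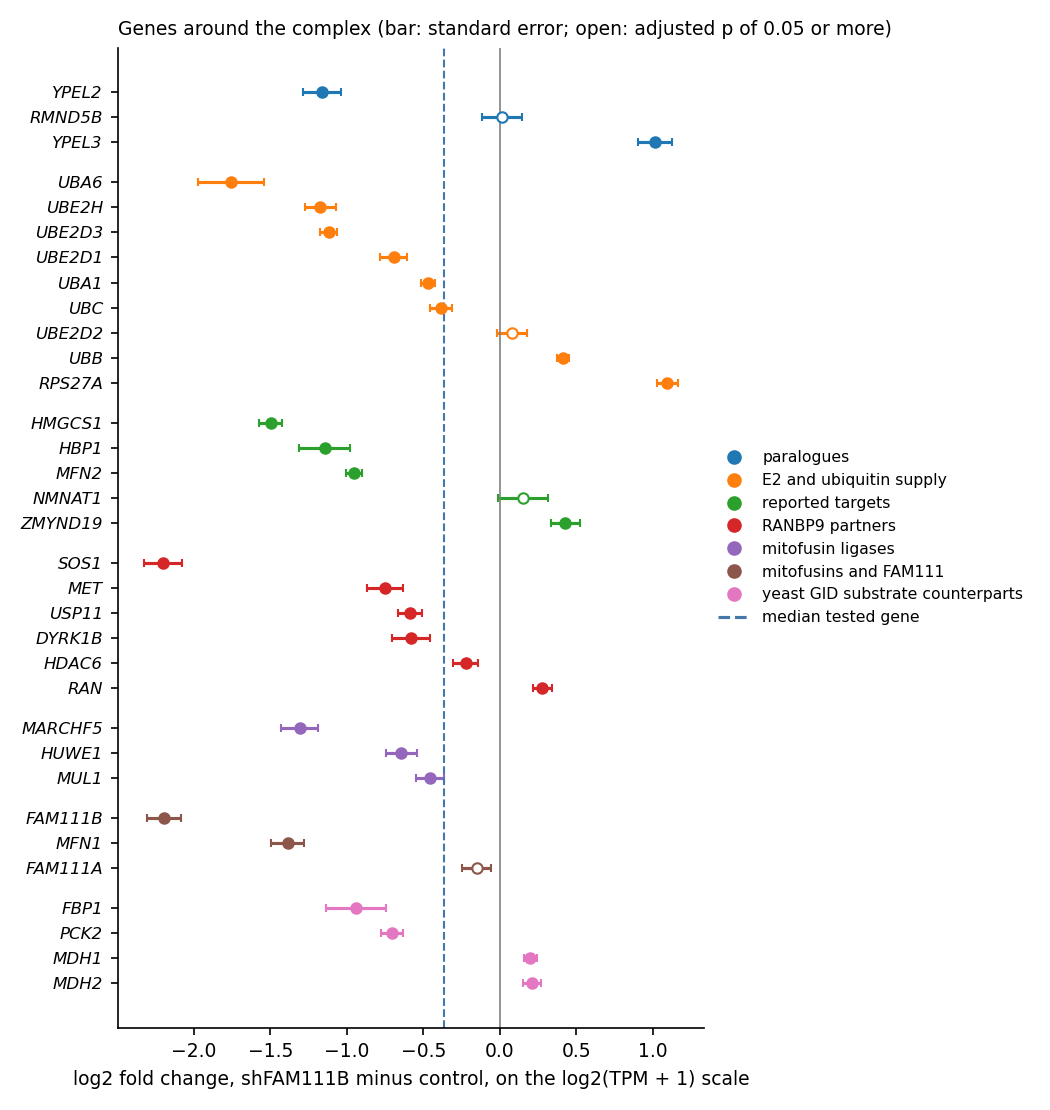
Log2 fold change (shFAM111B minus control, log2(TPM + 1) scale) with standard error for tested genes of the lists around the complex, apart from those not reported here, with filled points at an adjusted p under 0.05 and a dashed line at the median tested gene (-0.36). UBE2H, MFN2 and HMGCS1 lie below that line, and RPS27A and YPEL3 lie above 0.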

How the data were processed

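RNA-seq of 3 control and 3 shFAM111B Huh7 libraries was used, grouped by the sample labels. The authors deposited TPM for each library, beside group means and their own comparison (fold change, its log2, p-values and adjusted p-values), which were not used. The labels name RSEM, DESeq2 and hg38 without versions or roles, and the paper names a TruSeq kit where the labels describe a stranded mRNA kit with poly(A) selection. The aligner and annotation are not given in the sources used here. RSEM-type TPM divide by a length weighted over transcripts, and a rise of some genes lowers all others. The TPM of a library summed to 978634 to 997094, and correlations between libraries were 0.969 to 0.984 within and 0.865 to 0.883 between groups.

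Genes reaching 1 TPM in 3 or more libraries were compared on log2(TPM + 1) with lmFit and eBayes with a trend in limma 3.58.1 (R 4.3.3), with no covariate. Benjamini-Hochberg adjustment ran over all tested genes. Fold changes on this scale understate those of low genes. Log2 ratios of subunit pairs were compared by exact two-sided permutation of libraries. The call threshold was an adjusted p of 0.05. Scripts were tested on simulated data. Gene positions and transcripts came from GENCODE v29 (GRCh38) and promoters from RefSeq. Tables and figures used Python 3.11.15 with pandas 2.3.3, numpy 2.4.6 and matplotlib 3.10.9.

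The subunits and lists were chosen with earlier results of these data known. All 10 subunits are named, and of the related lists those genes for which every alternative was computed, as examples selected after their values were seen. Some listed genes are not reported here by name and stay in the counts. No source used here says whether the replicate numbers pair the samples. Correlations of same-numbered deviations were 0.054, 0.0349 and 0.0908, which cannot settle it without differently numbered pairs for comparison. Alternatives were another call rule, filters, a pseudocount of 0.1, 4 scalings, a replicate block and leaving out each library.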

Additional observations from a re-analysis of the deposited data

How the results depend on the processing

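Of the values recomputed under the alternatives, RANBP9, WDR26, RANBP10 and RMND5A kept their direction in all of them and their call in all but the 2-fold rule, which RANBP10 and RMND5A did not pass on the log2(TPM + 1) scale. RANBP10 was at -1.121 with a pseudocount of 0.1. Without one library at a time, RANBP9 ranged from -1.607 to -1.535, the number of subunits called lower from 6 to 8 and higher from 0 to 1, and all tested genes called higher from 2781 to 3010 and lower from 6933 to 7275. Subunits called at a 2-fold change and P under 0.05 were 0 higher and 2 lower, and with no filter on TPM 0 were higher, since MKLN1 then had an adjusted p of 0.0682 by limma over 29373 genes. Median-of-ratios, upper-quartile and median-subtracted values gave 4 subunits lower each, beside 35.8%, 36.4% and 29.4% of all tested genes. The last gave 3 higher (GID4, MKLN1 and YPEL5), beside 41.6%.

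All tested genes called higher were 3044 as reported and 5040, 4938, 5995 and 4675 under median-of-ratios, upper-quartile, median-subtracted and quantile scaling, and 4225 were lower with the library median subtracted, against 7326. In that order YPEL5 turned to 0.158, 0.139, 0.274 and 0.196 and FAM111A to 0.246, 0.228, 0.381 and 0.372. GID8 was 0.023 with the library median subtracted, and under quantile normalization UBB was -0.028 and RAN -0.106. GID4 ranged from -0.096 to 0.202 and RMND5B from -0.072 to 0.168 when single libraries were left out, with GID4 at -0.018, -0.096 and -0.01 without control replicate 1, control replicate 2 and shFAM111B replicate 1, and RMND5B at -0.052 and -0.072 without control replicates 2 and 3. The cause of these changes was not tested.

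With a replicate block, 7 subunits were lower and 1 higher, and 3022 of all tested genes were higher and 7198 lower, and the block changed no call among the named genes. No same-numbered pair correlated above 0.1, so the numbers were treated as shared labels only. With ARMC8 left out of the sum, the difference of the RANBP9 share was -5.33 percentage points. TPM give no depth, so what depth limits could not be computed. GID4 lies near the 1 TPM filter, where the pseudocount weighs most.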

Other observations

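Human counterparts of the gluconeogenic enzymes that the yeast complex degrades did not move one way. Of 6 listed, 4 were tested, with 2 higher and 2 lower as deposited, beside 21.1% and 50.9% of all tested genes. FBP1, fructose-bisphosphatase, had 4.46, 5.18 and 4.63 TPM in control and 1.79, 1.42 and 2.99 TPM in shFAM111B libraries, and PCK2, the mitochondrial PEP carboxykinase, went from 76.72 ± 5.33 to 46.73 ± 2.68 TPM (SD, n = 3). The malate dehydrogenases MDH1 and MDH2 had log2 fold changes of 0.20 (adjusted p = 0.0042 by limma) and 0.21 (adjusted p = 0.0158 by limma). Under other scalings MDH1 ranged from 0.03 (quantile normalization, adjusted p = 0.608 by limma) to 0.73 (library median subtracted), and in the latter FBP1 and PCK2 no longer passed (adjusted p = 0.101 and 0.0817 by limma).

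The genes whose pattern over the 6 libraries was most like that of RANBP9 were TOB1 (Pearson r of 1 after rounding), XPA (0.9999) and TSNAX (0.9999), among 12036 candidates. TOB1 had 39.07, 40.85 and 37.42 TPM in control and 9.19, 10.29 and 9.18 TPM in shFAM111B libraries. As 4844 of the candidates had an r over 0.95, and the 6 points are 2 groups of the same libraries, this likeness describes the split between the groups for a large number of genes.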
